A study of Mus musculus with 6 samples.

Results

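The B cell genes described here are 31 genes that B cells use and that encode no immunoglobulin, named as a list and matched by gene symbol to the rows of the array table. Of these, 29 had a transcript cluster (the array's unit for 1 transcript model) annotated with that gene alone, out of 30176 named genes and 65956 clusters in all. Pou2f2 lies on a cluster that it shares with a microRNA gene, and Lyn is unnamed in the annotation used, so neither is analysed here. Of the 29 genes, only Cr2 had more than 1 such cluster, and the one with the higher mean was taken.

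RNA was profiled from splenic regulatory T cells (Tregs) with the surface phenotype CD4+CD25+Nrp1+, taken from untreated male mice aged 10 to 12 weeks, with 3 mice in each group and 1 array a mouse. The CREB-KO group was Foxp3creCREBfl/fl: its CREB gene is flanked by loxP sites, and Cre is made from the Foxp3 locus, so that the deletion takes place in cells that express Foxp3. The CREB-WT group is labelled as wild type, and per the study's methods it consisted of CREBfl/fl mice without Cre. Both groups thus carried the floxed CREB alleles on a B6 background, and the Cre allele and the loss of CREB cannot be told apart. A magnetic enrichment for CD4 and CD25 preceded a flow cytometric sort on CD4, CD25 and Nrp1, and no B cell marker is named in that gate.

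B cells sense antigen through a surface immunoglobulin that signals through the CD79A and CD79B chains. Their tails are phosphorylated by Src family kinases and bind SYK, which acts through the adaptor BLNK and the kinase BTK. Receptors such as CD22 and CD72 dampen this signal, while the BAFF receptor keeps mature B cells alive. The identity of the lineage rests on the transcription factors EBF1 and PAX5. Several of the genes are also used outside the lineage, for example Cd37 in T cells and Syk and Btk in myeloid cells.

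Array medians ran from 4.55 to 4.58 (log2) on the CREB-KO and from 4.48 to 4.53 on the CREB-WT arrays, and arrays correlated at 0.980 to 0.988 over all clusters. Creb1, the targeted gene, was 14.10, 14.39 and 14.79 on the arrays labelled CREB-KO, against 13.30, 13.94 and 13.34 on those labelled CREB-WT, which goes against the labels. No source used here places its probes relative to the deleted exons, so this signal is no check of the labels, and directions are given between arrays by their labels. Cd4, a marker of the sort, and Cd3e, a T cell gene outside it, were bright on every array and differed by -0.04 ± 0.30 and -0.01 ± 0.17 (SE). CREB-KO replicate 1 was the lowest array for both genes. Cd4 was 12.98 there, against 14.09 and 13.98 on the other CREB-KO arrays and 13.68, 13.61 and 13.86 on the CREB-WT arrays. Cd3e was 16.78 there, against 17.36 and 17.32 on the other CREB-KO arrays and 17.10, 17.15 and 17.24 on the CREB-WT arrays.

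The label of the gene list was set against the data first. The 1224 olfactory receptor genes, which lymphocytes are not known to use, gave a level for probes with little or no transcript: the 95th percentile of their means was 5.09 (log2). Of the 29 genes, 9 had a mean at or below it. These were Syk, Btk, Blk, Fcrla, Fcer2a, Pax5, Ebf1, Spib and Bcl11a, which include both factors that define the lineage. Pax5 lay between 4.71 and 5.21 over the 6 arrays and Ebf1 between 3.67 and 3.85, with the groups overlapping for both. Ms4a1, which encodes CD20, Cr2 and Vpreb3 were barely above that level, at means of 5.16, 5.15 and 5.18. The other 20 genes were above it. The list thus holds genes with means well above the level of silent genes next to genes with means at or below it. The split is by mean: Spib exceeded 5.09 on CREB-WT replicates 2 and 3 (5.17 and 5.32), and Pax5 on CREB-WT replicate 1 (5.21).

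**Figure D1:**
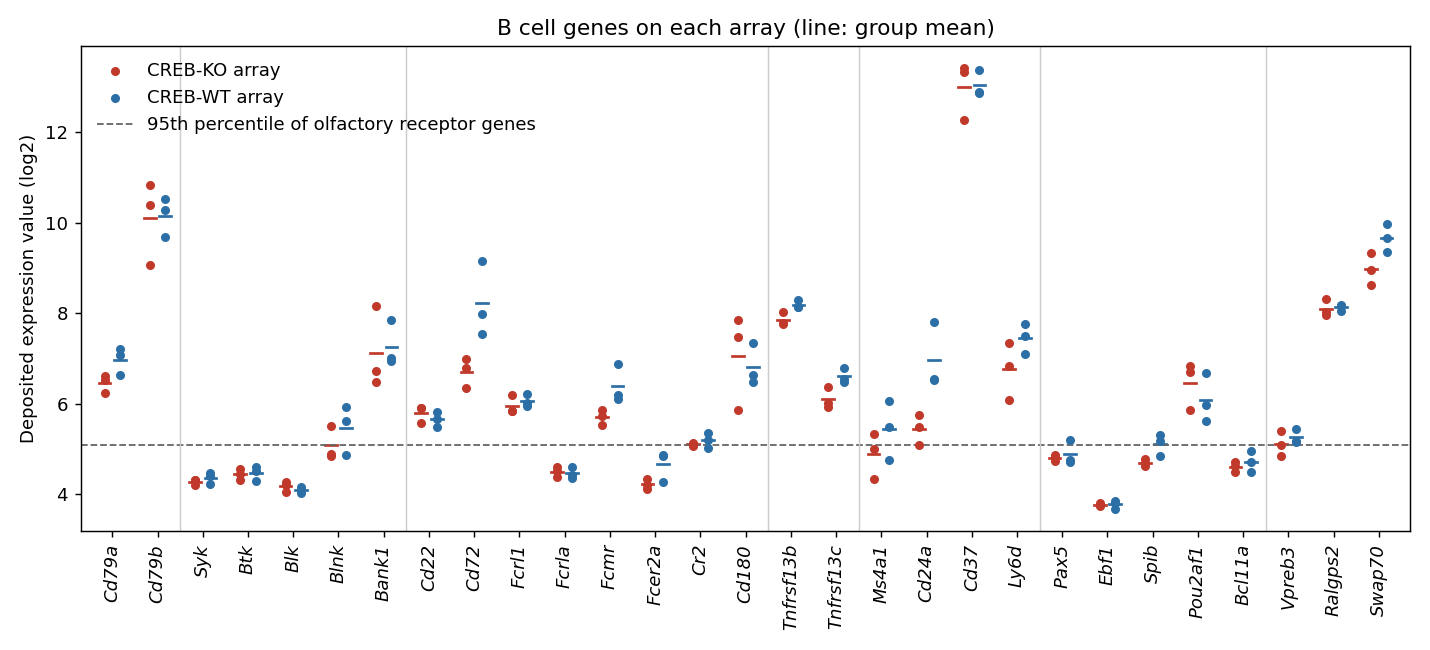
Deposited log2 value of each of the 29 B cell genes (x axis, grouped by role between the grey lines) on the 3 CREB-KO arrays (red) and the 3 CREB-WT arrays (blue), with short lines at group means. The dashed line at 5.09 is the 95th percentile of the means of the olfactory receptor genes, and 9 genes, Pax5 and Ebf1 among them, had means at or below it.

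Each gene was compared between the genotypes with limma fitted over all named genes, and a gene is called lower or higher when it changed at least 1.5-fold with an unadjusted p below 0.05, the limits that the study's methods state. Of the 29 B cell genes, 4 were lower on the CREB-KO arrays and 0 were higher, whereas 0.666% of all genes were called lower and 0.915% higher. The 4 genes were Cd72, Cd24a, Fcmr and Swap70. No B cell gene passed an adjusted p of 0.05, nor did any gene of the table (0%), and the smallest adjusted p in limma was 0.850 among the B cell genes and 0.617 overall. The methods' t-test gave 0 such genes as well. At an unadjusted p below 0.05, 9 B cell genes were negative and 0 positive, against 2.11% of all genes that were negative and 3.52% that were positive.

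The difference, CREB-KO minus CREB-WT, was below 0 for 24 of the 29 genes, against 41.0% of all genes, and its median was -0.11 (log2) against 0.04 over all genes. Among genes above the median level these contrasts were smaller for all genes, at 48.1% below 0 and a median of 0.01. There 19 of 22 B cell genes were below 0. At that level 4 B cell genes were called lower, against 1.25% of genes, and 8 lay lower on every CREB-KO array than on any CREB-WT array, against 5.08%. All 3 CREB-KO arrays lay below all 3 CREB-WT arrays for 8 of the 29 genes, against 3.73% of all genes, and 0 of the 29 showed the opposite pattern, against 7.86% of all genes. The share of all genes below 0 depended on the scaling and was 56.8% once each array's median was subtracted, where 25 of the 29 B cell genes were below 0 and 9 lay lower on every CREB-KO array than on any CREB-WT array, against 6.93% of all genes. On that scale the opposite pattern held for 0 of the 29 and for 3.62% of all genes. Of all genes called, 42.1% were lower on the deposited scale, 60.9% after subtracting array medians and 54.4% after quantile normalization; the 4 B cell genes were called under each of these scalings.

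**Figure D2:**
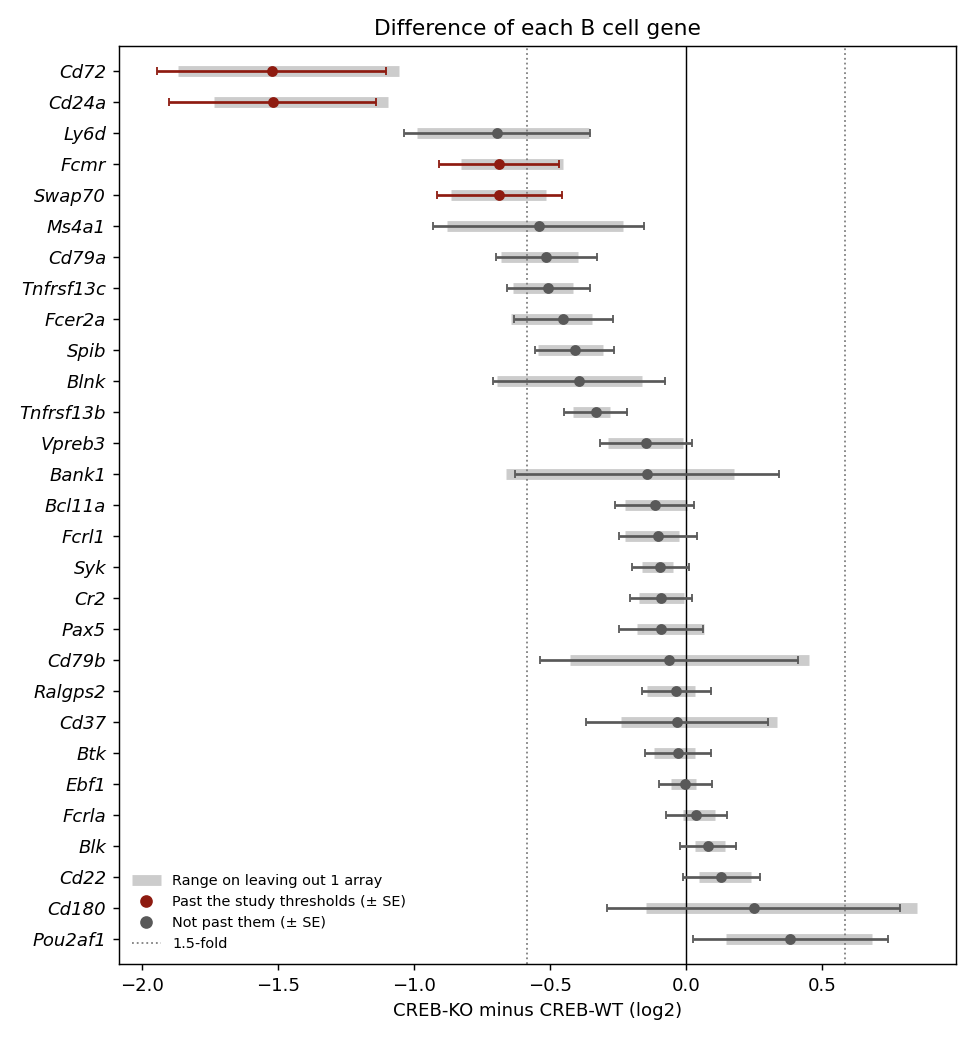
CREB-KO minus CREB-WT (x axis, log2) for each of the 29 B cell genes, as the limma estimate ± SE, with grey bars for the range of the estimate on leaving out 1 array at a time. Cd72 and Cd24a stand apart at -1.52 each, and the 24 genes below 0 run from there to Ebf1 at -0.0015.

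Cd72 had the largest difference of the list. It encodes a C-type lectin-like receptor of B cells that recruits the phosphatase SHP-1 and dampens antigen receptor signals. Its mean was 6.70 ± 0.32 in the CREB-KO group and 8.23 ± 0.84 in the CREB-WT group (SD, n = 3 each). Single values were 6.78, 6.35 and 6.98 on the CREB-KO arrays, against 9.16, 7.98 and 7.54 on the CREB-WT arrays. The groups did not overlap, and CREB-WT replicate 1 lay 1.18 above the next array. The difference was -1.52 ± 0.42 (SE; limma p 0.0104, adjusted p 0.850), a 2.88-fold lower level. Without CREB-WT replicate 1 it was -1.06, and Cd72 was called lower whichever array was left out.

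Cd24a, which encodes the small GPI-anchored glycoprotein CD24 found on immature B cells and on several other blood cells, was lower by nearly the same amount. It was 5.47, 5.75 and 5.09 on the CREB-KO arrays, against 7.81, 6.54 and 6.53 on the CREB-WT arrays. Here too the groups did not overlap and CREB-WT replicate 1 was the highest array, by 1.27. The difference was -1.52 ± 0.38 (SE; limma p 0.0065, adjusted p 0.850), a 2.87-fold lower level. The call held on leaving out any 1 array, with differences from -1.73 to -1.10.

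Fcmr encodes the Fc receptor for IgM, which B cells carry and which T cells can also make. Values of 5.72, 5.85 and 5.53 on the CREB-KO arrays stood against 6.19, 6.11 and 6.87 on the CREB-WT arrays, with no overlap and CREB-WT replicate 3 the highest. The difference was -0.69 ± 0.22 (SE; limma p 0.0195, adjusted p 0.856). The call was lost without CREB-KO replicate 3 (-0.60, limma p 0.0635) and without CREB-WT replicate 3 (-0.45). In RefSeq (GRCm38.p6) 3 protein-coding genes, Il24, Il20 and Il19, lie between Fcmr and Il10, the gene of an immunosuppressive cytokine. Il10 went the other way, with 9.64, 10.27 and 8.81 on the CREB-KO arrays and 7.47, 7.32 and 7.72 on the CREB-WT arrays. The genes between them stayed between 3.56 and 4.45 on all arrays, below the 95th percentile of the olfactory receptor genes.

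Swap70 encodes a PIP3-binding protein that links receptors to the cytoskeleton and takes part in immunoglobulin class switching and B cell migration. It was 8.96, 9.32 and 8.63 on the CREB-KO arrays, against 9.65, 9.35 and 9.96 on the CREB-WT arrays. The groups did not overlap, but CREB-KO replicate 2 and CREB-WT replicate 2 were nearly equal. The difference was -0.69 ± 0.23 (SE; limma p 0.0232, adjusted p 0.856), and the call was the least stable of the 4. It ended without CREB-KO replicate 1 (-0.68), CREB-KO replicate 3 (-0.52), CREB-WT replicate 1 (-0.69) or CREB-WT replicate 3 (-0.53). The methods' t-test called neither Swap70 nor Fcmr.

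The promoter windows of the called genes are shown because the genotypes differ in CREB, a factor that binds the cAMP response element. Whether CREB acts on these genes was not tested. They come from RefSeq (GRCm38.p6), run 5′ to 3′ on the gene's strand from 250 bases before to 50 bases after the annotated start, and were found for Cd72 (chr4:43454577-43454876, minus strand), Fcmr (chr1:130865527-130865826, plus strand) and Swap70 (chr7:110221453-110221752, plus strand). The minus-strand gene Cd72 extends to position 43455102 in RefSeq, upstream of its window, so the start used for it is not the gene's outermost. Cd24a has no entry. Capitals mark matches to the motifs named in the next paragraph.
Cd72: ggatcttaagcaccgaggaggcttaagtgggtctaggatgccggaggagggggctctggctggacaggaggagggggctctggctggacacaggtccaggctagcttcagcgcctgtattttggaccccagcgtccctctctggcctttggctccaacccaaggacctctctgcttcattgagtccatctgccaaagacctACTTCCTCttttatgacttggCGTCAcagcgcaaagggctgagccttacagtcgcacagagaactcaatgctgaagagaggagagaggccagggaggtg
Fcmr: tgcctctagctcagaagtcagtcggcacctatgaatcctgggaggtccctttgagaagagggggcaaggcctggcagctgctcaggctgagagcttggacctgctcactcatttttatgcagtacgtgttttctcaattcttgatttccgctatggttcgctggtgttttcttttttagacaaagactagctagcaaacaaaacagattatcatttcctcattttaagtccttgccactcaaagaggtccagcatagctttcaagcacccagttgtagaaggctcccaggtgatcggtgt
Swap70: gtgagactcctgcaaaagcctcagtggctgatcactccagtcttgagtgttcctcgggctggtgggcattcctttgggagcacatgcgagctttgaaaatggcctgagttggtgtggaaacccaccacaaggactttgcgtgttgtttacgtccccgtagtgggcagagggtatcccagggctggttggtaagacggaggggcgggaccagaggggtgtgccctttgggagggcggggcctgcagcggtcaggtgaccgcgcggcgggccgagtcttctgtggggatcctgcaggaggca

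Of the 31 B cell genes 25 had a promoter entry, with 31 windows in all. The palindromic cAMP response element TGACGTCA was in none of them and in 1.79% of all 32817 windows. For the motifs that follow, the B cell count is by gene, with any window of a gene sufficing. The share of all is by window, so the measures are unlike. The shorter site TGACG, contained in the palindrome, was searched on both strands. It was in windows of 3 of the 25 genes (Cd72, Pou2af1 and Ebf1) and in 20.8% of all windows. In the Cd72 window it read CGTCA, on the opposite strand, from position -28 relative to the start. The octamer ATGCAAAT, bound by POU2F2 with its partner POU2AF1, was in windows of 2 genes (Blnk and Vpreb3) and in 1.74% of all windows. GAGGAAGT, a site of Spi-B and PU.1 whose motif was added after the data were seen, was in windows of 3 genes (Cd72, Cd37 and Fcrl1) and in 3.2% of all windows. In Cd72 it lay on the opposite strand from position -49, where it read ACTTCCTC. The Fcmr and Swap70 windows held none of the 4 motifs, which says only that these letters are not in them.

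The remaining genes are given by role. Of the receptor chains, Cd79a was 6.23, 6.62 and 6.52 on the CREB-KO arrays, against 7.20, 7.07 and 6.63 on the CREB-WT arrays. The groups just failed to overlap, and the difference of -0.51 ± 0.19 (SE; limma p 0.0316, adjusted p 0.862) was short of the fold limit. Without CREB-WT replicate 3 (-0.68) or CREB-KO replicate 2 (-0.59) Cd79a was called lower. Its partner Cd79b, which gave a strong signal, was 9.06, 10.82 and 10.39 on the CREB-KO arrays, against 9.68, 10.27 and 10.52 on the CREB-WT arrays. These ranges overlapped fully and the difference was -0.06 ± 0.47 (SE). For Cd79b the lowest array of all was CREB-KO replicate 1, without which the sign turned (0.45).

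Among the receptor-proximal kinases and adaptors 0 of 5 measured genes were called. Syk, Btk and Blk, the kinases, were all at or below the level of silent genes, at 4.03 to 4.59 over the 6 arrays, with differences of -0.09, -0.03 and 0.08. Blnk, the adaptor that joins SYK to BTK, was 5.51, 4.88 and 4.84 on the CREB-KO arrays, against 5.94, 5.61 and 4.87 on the CREB-WT arrays, and the groups overlapped. Its difference was -0.39 ± 0.32 (SE), and without CREB-WT replicate 3 it was called lower (-0.70). Bank1, a scaffold protein of B cell receptor signalling, was 8.16, 6.72 and 6.48 on the CREB-KO arrays, against 7.84, 7.002 and 6.93 on the CREB-WT arrays. For Bank1 the array numbered 1 was the highest of each group, and the difference was -0.14 ± 0.49 (SE).

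Besides Cd72 and Fcmr, 6 genes of inhibitory and modulating receptors were measured. Fcer2a, the low-affinity IgE receptor CD23, was 4.11, 4.21 and 4.33 on the CREB-KO arrays, against 4.84, 4.87 and 4.28 on the CREB-WT arrays, all below the level of silent genes. Its difference of -0.45 ± 0.18 (SE; limma p 0.0471, adjusted p 0.872) was short of the fold limit, which it passed without CREB-WT replicate 3 (-0.64). Cd22, a sialic acid-binding inhibitory receptor, differed by 0.13 ± 0.14, Fcrl1 by -0.10 ± 0.14 and Fcrla, an intracellular Fc receptor-like protein, by 0.04 ± 0.11 (SE). Cr2, the complement receptor CD21, differed by -0.09 ± 0.11 on the cluster used and by 0.11 ± 0.12 on its other cluster. Cd180, a Toll-like receptor homologue, spread most widely within a group. It was 7.86, 7.47 and 5.86 on the CREB-KO arrays, against 6.47, 7.33 and 6.64 on the CREB-WT arrays, and differed by 0.25 ± 0.54 (SE). Without CREB-KO replicate 3 it was called higher (0.85), the only B cell gene called higher on leaving out 1 array.

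The B cell genes include 2 receptors that bind BAFF or APRIL, TNF family cytokines that sustain B cells. Each lay lower on every CREB-KO array than on any CREB-WT array, as did 3.73% of all genes. Tnfrsf13c, the BAFF receptor, was 6.03, 6.36 and 5.92 on the CREB-KO arrays, against 6.55, 6.79 and 6.49 on the CREB-WT arrays. It differed by -0.51 ± 0.15 (SE; limma p 0.0157, adjusted p 0.856). Tnfrsf13b, which encodes TACI, was 7.78, 7.75 and 8.02 on the CREB-KO arrays, against 8.13, 8.13 and 8.29 on the CREB-WT arrays. It differed by -0.33 ± 0.12 (SE; limma p 0.0267, adjusted p 0.861). Neither reached the fold limit, and the one setting on leaving out an array that took Tnfrsf13c past it was without CREB-KO replicate 2 (-0.64). In a list of 11 receptors, ligands and signalling partners of BAFF and APRIL, these 2 included, 9 were measured, 6 were below 0 and 0 were called, with a median difference of -0.11.

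Ly6d, a GPI-anchored protein that marks commitment to the B lineage, was 7.35, 6.09 and 6.84 on the CREB-KO arrays, against 7.77, 7.49 and 7.10 on the CREB-WT arrays. CREB-KO replicate 1 overlapped the CREB-WT range, and the difference was -0.69 ± 0.34 (SE; limma p 0.0864, adjusted p 0.872). Without that array Ly6d was called lower (-0.99), as it was with array weights (-0.80). Ms4a1 was 5.33, 4.34 and 5.01 on the CREB-KO arrays, against 5.49, 6.05 and 4.76 on the CREB-WT arrays, and its difference of -0.54 ± 0.39 (SE) was called only without CREB-WT replicate 3 (-0.88). Cd37, a tetraspanin of lymphocytes, was 12.26, 13.42 and 13.33 on the CREB-KO arrays, against 12.86, 12.89 and 13.36 on the CREB-WT arrays, with a difference of -0.03 ± 0.33 (SE). Its lowest array, as for Cd79b, was CREB-KO replicate 1.

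Of the 5 measured transcription factors 4 had means at or below the level of silent genes. Spib, an Ets family factor, was 4.68, 4.62 and 4.79 on the CREB-KO arrays, against 4.84, 5.17 and 5.32 on the CREB-WT arrays. The groups did not overlap, and the difference was -0.41 ± 0.15 (SE; limma p 0.0297, adjusted p 0.862). Pou2af1, the coactivator also known as OCA-B, was the factor above that level, at 6.69, 5.86 and 6.84 on the CREB-KO arrays and 5.97, 5.61 and 6.67 on the CREB-WT arrays. Its difference of 0.38 ± 0.36 (SE) was the highest of the 29, with overlapping groups. Pax5 differed by -0.09 ± 0.15, Ebf1 by -0.0015 ± 0.097 and Bcl11a by -0.11 ± 0.14 (SE). Of the other intracellular proteins, Vpreb3, a homologue of a surrogate light chain component, differed by -0.15 ± 0.17 and Ralgps2, an exchange factor for Ral GTPases, by -0.03 ± 0.13 (SE).

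The highest value fell on a CREB-WT array for 21 of the 29 genes (41.6% of all genes) and the lowest on a CREB-KO array for 21 (44.1% of all genes). The highest values were spread evenly over the CREB-WT arrays, at 7 genes each. Cd72, Cd24a, Blnk, Ly6d, Cd79a, Pax5 and Vpreb3 peaked on CREB-WT replicate 1, while Fcmr, Swap70, Tnfrsf13b and Spib peaked on CREB-WT replicate 3.

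**Figure D3:**
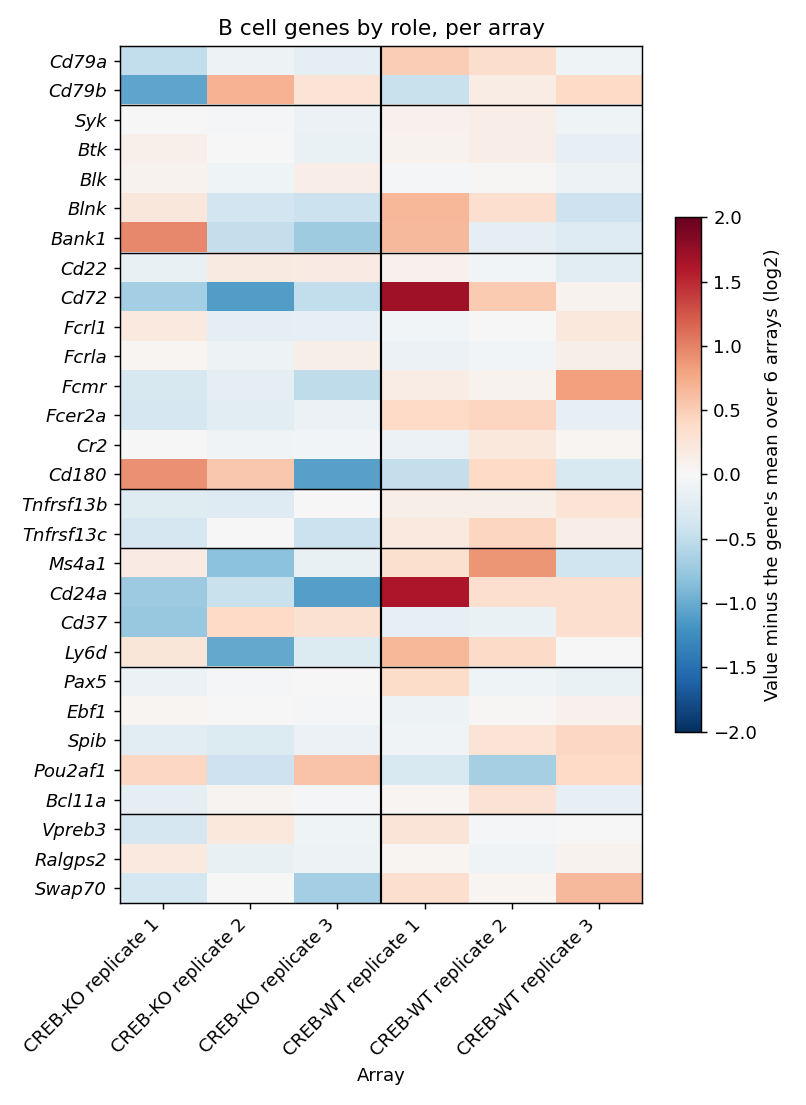
Each gene's value minus its own mean over the 6 arrays (colour, log2, red higher), with CREB-KO arrays left of the black line and CREB-WT arrays right of it, and genes in rows grouped by role. Cd72 and Cd24a are below their means on all CREB-KO arrays and highest on CREB-WT replicate 1, while Cd79b and Cd37 are lowest on CREB-KO replicate 1.

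As 1 level per array, the mean over the 29 genes of the value minus the gene's own mean was -0.09, -0.15 and -0.19 on the CREB-KO arrays, against 0.22, 0.15 and 0.06 on the CREB-WT arrays. Leaving out Cd72 and Cd24a, a choice made after their values were seen, it was -0.05, -0.10 and -0.14 against 0.11, 0.13 and 0.05, so the groups did not overlap either way. The 9 genes at the level of silent genes differed by a median of -0.09, and the 20 above it by -0.24. In these bulk samples fewer cells of a type and less RNA per cell cannot be told apart.

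Lists of other cells were laid beside the B cell genes. Of 25 measured macrophage and monocyte markers 23 were below 0 and 0 were called, their median difference was -0.73, and 23 were above the level of silent genes. Their level was 0.52, -0.51 and -1.15 on the CREB-KO arrays, against 1.00, 0.41 and -0.28 on the CREB-WT arrays, with CREB-WT replicate 1 the highest and the groups overlapping. Csf1r, the receptor that defines them, was 9.40, 7.37 and 5.84 on the CREB-KO arrays, against 10.42, 9.90 and 7.85 on the CREB-WT arrays. Within the CREB-KO group 6 of the 29 B cell genes had their arrays in the same order as Csf1r (Syk, Btk, Blnk, Bank1, Cd180 and Ebf1), against 16.8% of all genes. Within the CREB-WT group 8 had (Cd79a, Blnk, Bank1, Cd22, Cd72, Cd24a, Ly6d and Pax5), against 16.2% of all genes. The part of these cells in the B cell genes was not tested.

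Of 12 measured genes of MHC class II presentation, which B cells share with macrophages and dendritic cells, 9 were below 0, with a median difference of -0.24, and H2-Aa and H2-Ob were called lower. H2-Ob, a chain of the H2-O modulator found chiefly in B cells and thymus, was 7.52, 7.74 and 7.13 on the CREB-KO arrays, against 8.46, 8.73 and 8.62 on the CREB-WT arrays, and differed by -1.14 ± 0.18 (SE; adjusted p 0.850 in limma). The list's level was -0.13, -0.18 and -0.23 on the CREB-KO arrays, against 0.66, 0.03 and -0.15 on the CREB-WT arrays, with CREB-WT replicate 3 just below CREB-KO replicate 1, so the groups overlapped. The part of such cells in the B cell genes was not tested either. Of 20 dendritic cell markers 11 were above the level of silent genes, 15 were below 0 with a median difference of -0.14, and Itgax and Klk1 were called lower, at levels from -0.19 to 0.02 on the CREB-KO and from -0.04 to 0.20 on the CREB-WT arrays. Flt3, taken as their defining marker, was below the level of silent genes on every array. Itgax, which encodes CD11c, is named because it was called. It was 5.43, 5.04 and 5.38 on the CREB-KO arrays, against 6.27, 5.88 and 5.45 on the CREB-WT arrays.

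Genes of later B cell stages were counted in the same way. Of 15 plasma cell markers 10 were above the level of silent genes, 6 were below 0, the median difference was 0.03, and Ell2, an elongation factor of antibody-secreting cells, was the 1 gene called, as higher by 0.73 ± 0.28 (SE; adjusted p 0.872 in limma). Their level ran from -0.0023 to 0.11 on the CREB-KO and from -0.16 to 0.05 on the CREB-WT arrays, and Sdc1, which defines them, lay at 4.20 to 4.49 on all arrays, below the level of silent genes. Of 13 germinal centre genes 7 were below 0 and 0 were called, with a median difference of -0.06. The level of CD4 T cell and Treg genes ran from -0.31 to 0.21 on the CREB-KO and from -0.17 to 0.16 on the CREB-WT arrays, lowest on CREB-KO replicate 1 as for Cd79b and Cd37; of 21 measured, 11 were below 0, with a median difference of -0.01, and Itgae and Nt5e were called higher. CD8 T and NK cell markers (13 measured, 10 below 0, median difference -0.34) and erythroid and platelet markers (9 measured, 5 below 0, median difference -0.01) held 0 called genes.

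**Figure D4:**
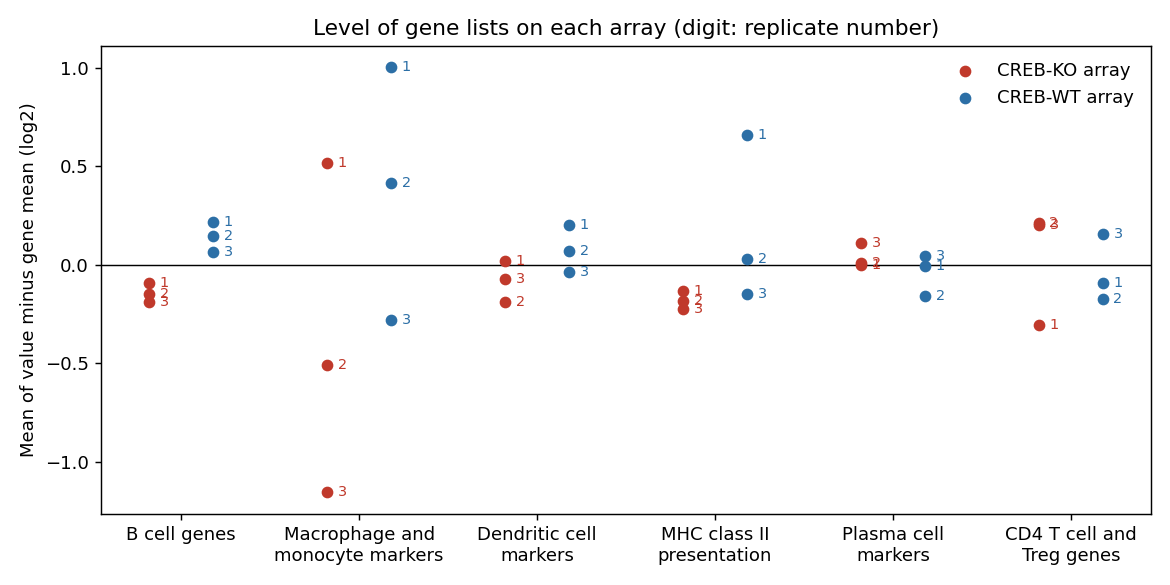
Level of 6 gene lists (x axis) on each array, as the mean over genes of the value minus the gene's mean over 6 arrays (y axis, log2), with CREB-KO arrays in red and CREB-WT arrays in blue and the replicate number as a digit. The B cell genes lie at -0.19 to -0.09 on the CREB-KO and at 0.06 to 0.22 on the CREB-WT arrays, while the macrophage list runs from -1.15 to 1.00 with the groups overlapping.

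In a list of 32 other genes of B cell receptor signalling, most of which T cells or myeloid cells use as well, 30 were measured, 19 were below 0 and 0 were called in either direction, with a median difference of -0.05. Of 32 further genes that B cells express, 26 were measured, 16 were below 0, and 3 were called lower and 1 higher, with a median of -0.10. Cd55, a complement regulator on most blood cells, differed by -0.86, with 9.89, 9.29 and 8.90 on the CREB-KO arrays, against 10.15, 10.41 and 10.11 on the CREB-WT arrays. Tspan32, a tetraspanin, and Gm8369 differed by -0.59 and -0.63. Cd83, an activation marker of lymphocytes and dendritic cells, was called higher, by 0.86, on a cluster that the array names as unmapped. On its other cluster Cd83 differed by 0.54, short of the fold limit.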

How the data were processed

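RNA of sorted CD4+CD25+Nrp1+ splenic T cells from 6 mice was hybridized to Affymetrix arrays, which the design text and the methods name differently; they also differ on labelling kit and input, which the labels give as 7.92 ng. The authors deposited log2 values, 1 per transcript cluster and array, normalized and summarised with RMA (version not given in the sources used here). Values ran from 1.52 to 19.93, and 1082 clusters exceeded 16 on at least 1 array, so a difference of 1 is a 2-fold change only if the scale is a true log2 scale. The number of arrays limits the precision.

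Genes were named through the platform annotation: 30638 clusters had 1 symbol, 2176 several and 33142 none, and 22596 Entrez identifiers matched RefSeq (GRCm38.p6) with 0 symbols changed. The array's genome build was not stated in any source used, so RefSeq served for names, gene order and promoter sequences. For a gene with several clusters the one with the highest mean was used. No sequences of proteins were used.

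Genotypes were compared by limma 3.58.1 (R 4.3.3) over 30176 genes, unfiltered, two-sided, with Benjamini-Hochberg adjustment over all genes; the fit was tested on simulated data. For 3 arrays a group, the smallest two-sided p of an exact permutation test is 0.1. Groups come from the titles, and per the labels each array is another individual. All members of the list are named; of other lists, the genes called and the defining markers are named. The members and lists were chosen with earlier results of these data known, so no count of them is independent support. Alternatives were a replicate block, each array left out, 2 other scalings, array weights, a trended prior, the methods' t-test, a filter on low values, the mean of a gene's clusters and a fit over all clusters. Leaving out both arrays numbered 1, and the Spi-B motif, were added after the data were seen.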

Additional observations from a re-analysis of the deposited data

How the results depend on the processing

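The count of 4 B cell genes called lower was 2 with the methods' t-test (Cd72 and Cd24a), where 0.355% of all genes were called lower. It was 5 with array weights, which added Ly6d and where 0.762% of all genes were, and between 2 and 6 on leaving out 1 array. The lowest count was without CREB-KO replicate 3, where 0.742% of all genes were called lower. The highest, 6, came without CREB-KO replicate 2, where 0.964% of all genes were called lower, or CREB-WT replicate 3, where 1.16% were. The count of 0 called higher lay between 0 and 1 on leaving out 1 array. The 8 genes without overlap lay between 8 and 13 on leaving out 1 array and were 14 without both arrays numbered 1, where fewer arrays make overlap rarer. All genes gave 7.90% without CREB-WT replicate 3, the setting with 13, and 13.4% without both arrays numbered 1. The median difference of -0.11 lay between -0.24 and -0.14 on leaving out 1 array, was -0.24 among genes above the median level (22 of the 29) and -0.27 without both arrays numbered 1. The counts at an adjusted p and below 0 did not move by over 1.5 times.

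Of all genes, 201 were called lower and 276 higher. These were 107 and 145 with the methods' t-test, 305 called lower after subtracting array medians, and 423 and 467 without both arrays numbered 1. On leaving out 1 array they ran from 224 to 506 and from 276 to 447. With the replicate block 314 were lower, and 4 B cell genes were called, Ly6d (limma p 0.0488) in place of Swap70 (limma p 0.0580). Same-numbered arrays correlated at 0.259, -0.0816 and 0.0866 in their deviations from the group means. Differently numbered arrays correlated at -0.245 to 0.224. The level of the macrophage list fell from replicate 1 to replicate 3 in both groups. Whether same-numbered arrays were handled together was not tested.

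Signs turned for genes that were not called. With array weights Cd79b was 0.12, Cd37 0.096 and Ebf1 0.0038. Fcrla was -0.025 after subtracting array medians and -0.024 after quantile normalization, and Cr2 was 0.0094 as the mean of its clusters. Without both arrays numbered 1, Cd79b was 0.21, Cd37 0.25, Cd180 -0.32, Pax5 0.10, Vpreb3 0.080 and Fcrla -0.025. On leaving out 1 array the difference ran from -0.43 to 0.45 for Cd79b, -0.12 to 0.033 for Btk, -0.66 to 0.18 for Bank1, -0.012 to 0.11 for Fcrla, -0.15 to 0.85 for Cd180, -0.24 to 0.34 for Cd37, -0.18 to 0.068 for Pax5, -0.054 to 0.038 for Ebf1, -0.22 to 0.0033 for Bcl11a and -0.14 to 0.035 for Ralgps2. The causes were not tested. Signals near the level of silent genes carry little information on differences.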
